A study of Mus musculus with 8 samples.

Results

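The regions described here are those of 10 genes that hold back or drive the cell cycle in dividing cells: the cyclin-dependent kinase (CDK) inhibitors Cdkn1a, Cdkn1b, Cdkn1c, Cdkn2a, Cdkn2c and Cdkn2d, the retinoblastoma gene Rb1, the transcription factor genes E2f1 and Trp53, and Mdm2. Any peak that touched the body of a gene, or the 20 kb to either side, in the mm10 coordinates of the GENCODE annotation was taken, whatever its height. By this rule 70 of 152984 peaks of the wild-type (WT) list, 77 of 174407 of the mutant list and 58 of 106974 of the heterozygous (het) list were members, and all 10 genes had peaks in all 3 lists. Many of these peaks lie at the starts of neighbouring genes, which are named where they occur.

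The peaks come from ATAC-seq, in which the Tn5 transposase cuts and tags accessible DNA, of granule neuron progenitors (GNPs) of the mouse cerebellum at postnatal day 7. GNPs are the dividing precursors of cerebellar granule neurons, and they were purified by density centrifugation from pups of either sex. The 8 libraries comprised 3 labelled Chd7 wild type, 3 labelled Chd7 mutant and 2 labelled Chd7 het, where Chd7 encodes a chromatin remodelling enzyme. All mice carry the strain label C56Bl6/J. The study writes the genotypes of its P7 animals as Chd7 f/f for WT, Atoh1-Cre::Chd7 f/+ for het and Atoh1-Cre::Chd7 f/f for homozygous mutant, so a floxed Chd7 allele is present in every group and the Cre transgene in the het and mutant groups alone. Atoh1-Cre acts in the granule lineage, so Purkinje cells in the same cerebella were not targeted. The study also found some Chd7 protein left in the posterior lobe of mutants, and gives weaker recombination there as the probable reason. The part of cells that kept Chd7 in the results below was not tested. The deposited lists pool the libraries of each genotype, and the study calls the WT and mutant replicates technical, so no value below has a replicate error and no test between genotypes was possible. Intervals of tag counts and their ratios cover counting error only, and reads were not counted by molecule. Those of shares and of the median treat the peaks as independent draws. None covers variation between libraries.

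Progression through G1 depends on cyclin D and cyclin E kinases, which phosphorylate the retinoblastoma protein and so free E2F factors to switch on genes of DNA replication. Cdkn1a (p21), Cdkn1b (p27) and Cdkn1c (p57) bind and inhibit cyclin-CDK complexes, while Cdkn2a (whose Ink4a transcript encodes p16), Cdkn2c (p18) and Cdkn2d (p19) inhibit the cyclin D kinases. The p53 protein, encoded by Trp53, activates Cdkn1a and Mdm2, and Mdm2 in turn marks p53 for degradation, a loop that the Arf transcript of Cdkn2a blocks by sequestering Mdm2. In the cerebellum GNPs divide in response to Sonic hedgehog and leave the cell cycle as they become granule neurons, and Cdkn1b is well known for restraining their division.

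Both Cdkn1a and Cdkn2a have a pair of starts, and the results turn on them, so the 250 bases before each RefSeq start (GRCm38.p6) are shown first. Cdkn1a lies on the plus strand of chromosome 17, and its windows are chr17:29090729-29090978 for the upstream start and chr17:29093519-29093768 for the downstream one. Cdkn2a lies on the minus strand of chromosome 4, and its windows are chr4:89294620-89294869 for the Arf start and chr4:89282193-89282442 for the Ink4a start. Capitals mark letters of a p53 response element or of an E2F motif, searched as given further on, and windows without capitals hold neither.
Cdkn1a upstream start: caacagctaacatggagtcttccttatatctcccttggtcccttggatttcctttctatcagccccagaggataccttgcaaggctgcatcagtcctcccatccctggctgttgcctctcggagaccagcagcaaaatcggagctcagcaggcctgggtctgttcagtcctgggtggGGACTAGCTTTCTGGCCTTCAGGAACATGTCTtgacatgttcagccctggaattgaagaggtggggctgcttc
Cdkn1a downstream start: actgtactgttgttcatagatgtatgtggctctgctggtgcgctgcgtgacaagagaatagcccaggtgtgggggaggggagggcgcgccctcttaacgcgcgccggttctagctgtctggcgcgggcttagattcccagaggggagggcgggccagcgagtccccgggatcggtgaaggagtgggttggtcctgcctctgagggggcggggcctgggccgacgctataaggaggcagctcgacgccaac
Cdkn2a Arf start: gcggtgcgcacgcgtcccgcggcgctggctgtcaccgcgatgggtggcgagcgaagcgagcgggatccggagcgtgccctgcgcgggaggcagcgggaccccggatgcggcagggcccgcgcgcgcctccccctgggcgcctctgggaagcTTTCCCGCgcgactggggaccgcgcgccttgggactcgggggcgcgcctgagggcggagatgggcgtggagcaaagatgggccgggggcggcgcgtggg
Cdkn2a Ink4a start: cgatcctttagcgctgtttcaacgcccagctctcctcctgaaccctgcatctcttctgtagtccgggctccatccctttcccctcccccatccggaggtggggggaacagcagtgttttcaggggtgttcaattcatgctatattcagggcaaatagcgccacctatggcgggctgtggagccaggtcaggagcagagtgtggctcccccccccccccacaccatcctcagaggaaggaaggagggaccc
The upstream window of Cdkn1a holds 2 CpG dinucleotides and the downstream one 19. The Arf window holds 40 CpG and the Ink4a window 7. No list had a peak in the upstream window of Cdkn1a, while the other 3 windows each overlapped 1 peak in every list.

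Accessibility at most of these genes differed little between the WT and mutant lists, and the start peak of Cdkn1a stood apart, at a 2.20-fold lower height in mutant. Peak height is given as the pileup, the number of extended tags at the summit, and for comparison between WT and mutant it was scaled to 1000000 tags left after duplicate filtering, of which there were 50394313 for WT and 51030229 for mutant. Of the 70 WT peaks, 11 had no overlapping mutant peak, which is 15.7% (Wilson 95% interval 9.01 to 26.0) against 22.8% of all WT peaks. Among the 77 peaks of mutant, 13 lacked one of WT, which is 16.9% (10.1 to 26.8) against 30.7% of all mutant peaks. The het list, called from 30923002 tags, had a peak at 53 of the 70 WT peaks, which is 75.7% (64.5 to 84.2) against 63.1% of all WT peaks. The 10 regions are rich in starts, with 34 of 70 WT peaks (48.6%) within 1 kb of an annotated start of some gene against 16.1% of all WT peaks, and start peaks were shared more often across the whole lists. Among WT start peaks, 3 of 34 at these genes (8.82%) and 9.46% of all had no mutant peak. Away from starts these shares were 8 of 36 (22.2%) and 25.4%. Peaks that lacked a partner were mostly weak: the median −log10 q was 3.59 over the 11 of WT and 4.61 over the 13 of mutant, and the highest values were 6.98 and 11.2.

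**Figure D1:**
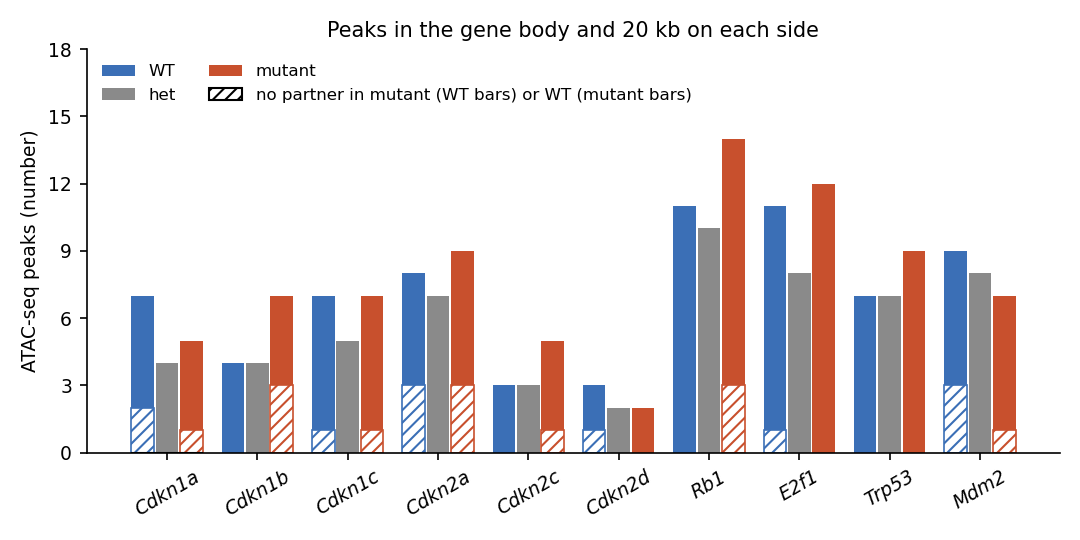
Number of ATAC-seq peaks (y axis) in the gene body and the 20 kb on each side of each gene (x axis) in the WT, het and mutant lists, 1 pooled list per genotype. Hatching marks WT peaks without an overlapping mutant peak and mutant peaks without a WT peak, from 0 to 3 per gene in either list.

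The 59 WT peaks with a mutant partner were split evenly by direction. Of these pairs 30 were higher in mutant and 29 lower, and the share that was higher, 50.8% (38.4 to 63.2), may be set beside 57.6% of all 118098 shared peaks. The median log2 ratio of mutant over WT was 0.0079 at the 10 genes, with an order-statistic interval of −0.096 to 0.125, and 0.075 over all shared peaks. A pair was called when it differed by at least 1.5-fold after depth scaling. At the 10 genes 5 pairs were called higher in mutant (8.47%, against 8.37% of all shared peaks) and 3 lower (5.08%, against 3.61%). Among the 31 pairs at starts, 4 were called higher and 2 lower, where 5.06% and 1.06% of all start pairs were called. Of these 8 calls, 5 belong to neighbouring genes (Kri1, Lockd, Cpm and, with 1 in each direction, Rcbtb2) and 3 to the listed genes themselves: the starts of Cdkn1a and of Ink4a, both lower in mutant, and 1 peak beside the start of E2f1.

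**Figure D2:**
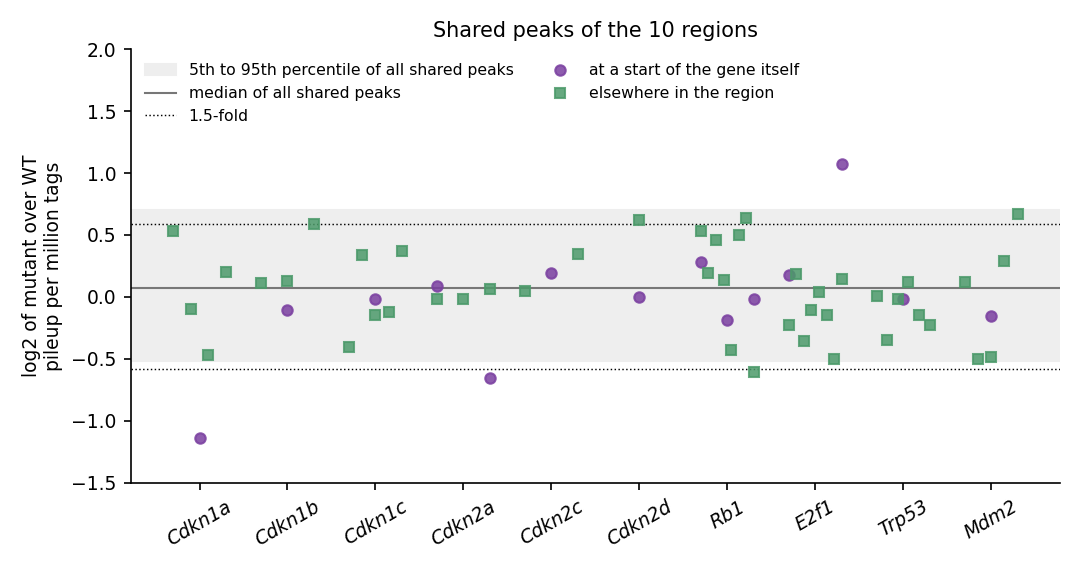
log2 of the mutant over the WT pileup per 1000000 tags (y axis) for each of the 59 shared peaks, by gene (x axis), with circles at a start of the gene itself and squares elsewhere in its region. The grey band spans the 5th to the 95th percentile of all 118098 shared peaks (−0.52 to 0.70), dotted lines mark 1.5-fold, the lowest point is the Cdkn1a start at −1.14, and the highest, at E2f1, pairs a WT peak with the larger start peak of the mutant list.

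Cdkn1a, the CDK inhibitor gene that is the best known target of p53, had 7, 4 and 5 peaks in WT, het and mutant. The peak at its downstream start (chr17:29093634-29093831, summit 23 bp before the start) reached 37 tags in WT and 17 in mutant, or 0.734 and 0.333 per 1000000. The mutant peak began at the same base and was thus present, but at 0.454 of the WT height, with an exact 95% counting interval of 0.240 to 0.826 that excludes 1. The pair is also the lowest of all 59, and this interval makes no allowance for the number of pairs looked at. Of the 22269 shared start peaks of the whole lists, 5 had a ratio as low or lower, and of the 13457 with at least 30 tags in WT, 2 did. Both counts include the Cdkn1a pair itself. The latter set has no upper limit on height, and the ratios of taller peaks scatter less from counting. By the peak caller's fold enrichment over local background the values were 7.14 in WT and 4.29 in mutant, which is 1.66-fold lower. Tag size also differed between the lists, 107 bp in WT and het and 76 bp in mutant, and its part in the result was not tested.

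Because het peaks were called with other settings, that list is compared by rank only, the percentage of a list's peaks at or below a peak's −log10 q. The downstream start peak of Cdkn1a ranked at 81.0% in WT, 38.9% in het and 44.5% in mutant, so it stood lower in het as well as in mutant. Its difference from WT was −42.1 points in het, where the median over 20475 start peaks was −2.30, the 5th percentile −27.0, and 1.01% lay as low or lower. In mutant the difference was −36.5 points, where the median was 1.17, the 5th percentile −13.8, and 0.507% lay as low or lower.

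The rest of the Cdkn1a region differed less. An intronic peak 1745 bp inside the downstream start (chr17:29095258-29095693) reached 37 tags in WT, the same as the start peak, and 27 in mutant, a ratio of 0.721 (0.422 to 1.22) whose interval includes 1. Between them a weak WT peak 712 bp inside the start (chr17:29094441-29094597, 17 tags, rank 26.1%) had no partner in mutant or het. The intergenic peak 3748 bp before the upstream start had 19 tags in WT and 18 in mutant. At the start of Trp53cor1, which encodes the p53-induced lincRNA-p21, the mutant pileup was instead the higher one, 19 tags against 13 in WT (ratio 1.44, 0.676 to 3.18), and a further mutant peak of 11 tags there had no WT partner. Thus peaks of both directions lay within one region, and by pileup the call of 1.5-fold was met by the downstream start of Cdkn1a alone, while by fold enrichment Trp53cor1 met it too, 1.65-fold higher in mutant.

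**Figure D3:**
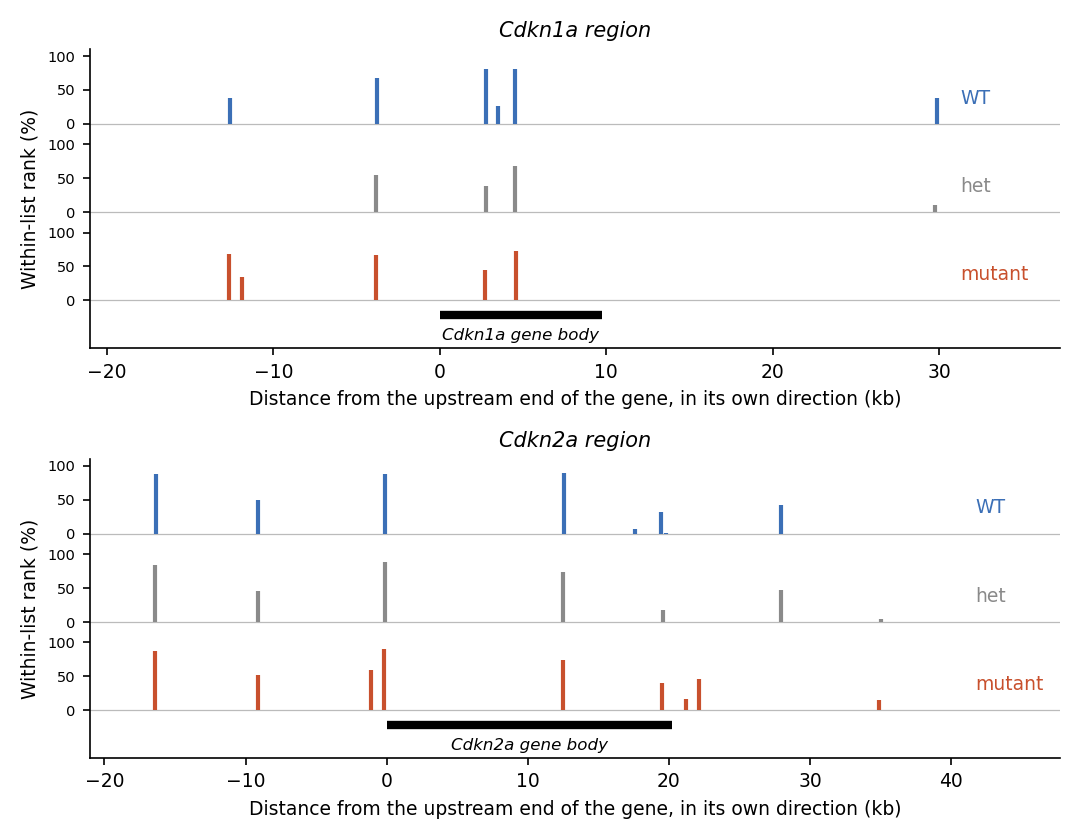
Within-list rank by −log10 q (y axis, percent of the list's peaks at or below) of every peak at Cdkn1a (top) and Cdkn2a (bottom) in the WT, het and mutant lists, against the distance of its summit from the upstream end of the gene in kb (x axis), with the gene body in black. At Cdkn1a the peak near 3 kb, at the downstream start, is the one that ranks lower in het and mutant (38.9% and 44.5%) than in WT (81.0%), and no list has a peak at 0 kb, the upstream start.

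Cdkn1b, whose product p27 holds cells in G1, had 4, 4 and 7 peaks in WT, het and mutant. Its start peak (chr6:134919693-134920778) was among the strongest of the lists, with 84 tags in WT and 79 in mutant, a ratio of 0.929 (0.674 to 1.28), and ranks of 97.2%, 93.6% and 95.5% in WT, het and mutant. Lockd, a lncRNA gene just downstream of Cdkn1b, had a strong start peak of 67 and 74 tags (ratio 1.09, 0.773 to 1.54). A weaker peak beside it (chr6:134929137-134929282) had 21 tags in WT and 32 in mutant, a log2 ratio of 0.59 that just passed the 1.5-fold call, with an interval of the ratio (0.841 to 2.75) that includes 1, and it was not called after centring on the median of all shared peaks or by fold enrichment. The strongest of the 3 mutant peaks without a WT partner (27 tags, rank 34.9%) lay at the start of Gm44238 and had a het partner. The start of Cdkn1b itself thus differed by less than counting error.

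Cdkn1c, an imprinted gene whose product p57 restrains the cycle in many embryonic tissues, had 7, 5 and 7 peaks. Its start peak (chr7:143460886-143461490) had 42 tags in both WT and mutant, a ratio of 0.988 (0.628 to 1.55), and ranked at 83.9%, 84.8% and 85.9% in WT, het and mutant. The strongest peak away from a start, 9089 bp upstream on the side of Slc22a18, had 30 tags in WT and 23 in mutant (0.757, 0.420 to 1.35). Of the 6 shared peaks here 2 were higher and 4 lower in mutant, none past 1.5-fold. A WT peak of 21 tags 3044 bp upstream had no partner in either other list, and a mutant peak of 12 tags in Slc22a18 had none.

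At Cdkn2a the mutant value was the lower one at the Ink4a start and close to that of WT at the Arf start. The Ink4a start peak (chr4:89281994-89282528) had 42 tags in WT and 27 in mutant, a ratio of 0.635 with an interval of 0.376 to 1.05. This passes the 1.5-fold call, met downwards by 1.06% of start pairs, but the counting interval includes 1, and by fold enrichment (9.93 and 6.92) the difference was below 1.5-fold. It ranked at 88.8%, 73.1% and 74.3% in WT, het and mutant. Of all start peaks 13.4% fell as far or further from WT to het, and 4.70% did so from WT to mutant. The Arf start peak (chr4:89294422-89295908), looked up after the values were seen, had 51 tags in WT and 55 in mutant, a ratio of 1.07 (0.714 to 1.59), and held its rank, at 88.5%, 88.5% and 90.6% in WT, het and mutant. The difference between both ratios was not tested, and their intervals overlap.

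The neighbouring INK4 gene Cdkn2b, in the same region, had 47 tags at its start in both lists. Cdkn2a had 8, 7 and 9 peaks in WT, het and mutant, and 3 in WT and 3 in mutant lacked a partner in the other list. The strongest of those were a WT peak of 12 tags and a mutant peak of 18 tags, both in or at Gm12606, and the former had a het partner. In mutant the far end of the Arf peak was called as a separate peak of 28 tags.

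Cdkn2c, encoding p18, had a broad start peak (chr4:109665141-109667253) of 75 tags in WT and 87 in mutant, a ratio of 1.15 (0.831 to 1.58). It ranked at 94.5%, 96.0% and 97.6% in WT, het and mutant, and the mutant list split it in 2. All 3 shared peaks of this region were higher in mutant, none past 1.5-fold, including the start of Faf1, with 90 and 94 tags. Cdkn2d, encoding p19, had 82 tags at its start in WT and 83 in mutant (chr9:21290780-21291755), with an interval of the ratio of 0.728 to 1.37. The start of its neighbour Kri1 (chr9:21287541-21288273) had 47 and 73 tags, a ratio of 1.53 (1.05 to 2.26), called higher in mutant, a call that was lost after centring on the median of all shared peaks and by fold enrichment. It ranked at 77.6%, 86.8% and 92.9% in WT, het and mutant. The Kri1 summit lies 3182 bp from the start of Cdkn2d, whose own peak had nearly equal values in both lists.

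**Figure D4:**
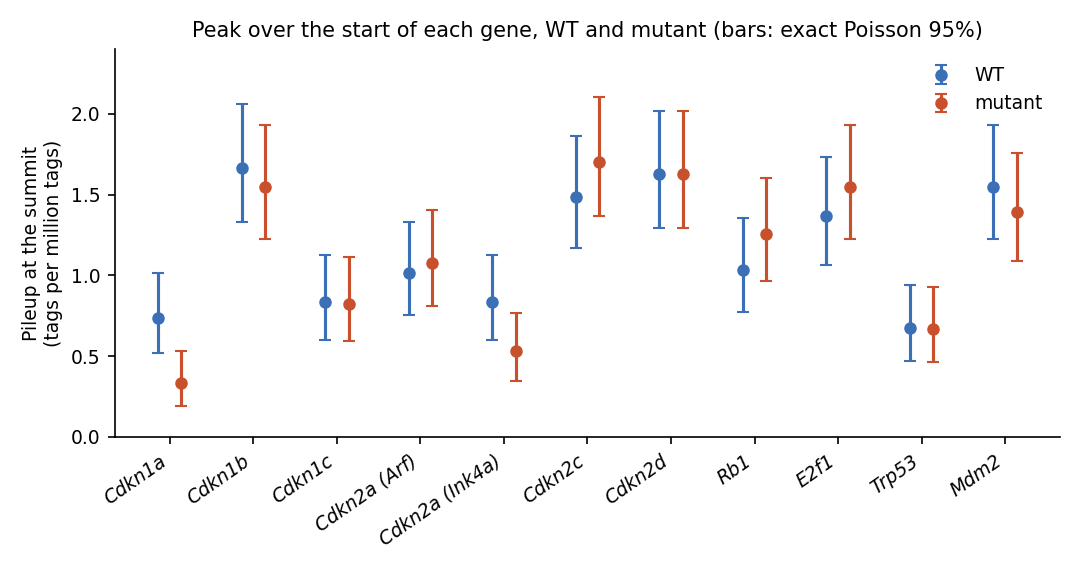
Pileup at the summit of the start peak per 1000000 tags (y axis) in WT and mutant for each gene, with Cdkn2a shown at both starts (x axis), 1 pooled list per genotype, and bars for exact Poisson 95% intervals of the tag count. The Cdkn1a pair (0.734 and 0.333) is the furthest apart in ratio, followed by Ink4a (0.833 and 0.529), and the other 9 pairs have ratios between 0.899 and 1.22.

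Rb1, the gene of the retinoblastoma protein that keeps E2F factors inactive, is the longest of the 10 at 142150 bp and had the most mutant peaks, 14, against 11 in WT and 10 in het. All 11 WT peaks had a mutant partner. The start peak (chr14:73325192-73326523) had 52 tags in WT and 64 in mutant, a ratio of 1.22 (0.830 to 1.79), and ranked at 88.1%, 89.7% and 92.9% in WT, het and mutant. The strongest peak away from a start, within an intron (chr14:73217092-73217609), had 28 and 40 tags, a ratio of 1.41 (0.849 to 2.37). Of the 3 mutant peaks without a WT partner, an intronic one (chr14:73281112-73281325) was the strongest such peak of all 10 regions, with 18 tags, a −log10 q of 11.2 and a rank of 66.9%. It had a het partner ranked at 50.01%. Within the intron of Rb1 that holds the gene Lpar6, the Lpar6 start peak had 52 and 58 tags. At Rcbtb2, beyond the end of Rb1, 1 peak was called higher (14 and 22 tags) and 1 lower (18 and 12 tags), both with intervals that include 1, and at neither did a mutant peak cover the WT summit. The higher call was lost after centring and by fold enrichment, and the lower one was met under both.

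E2f1, encoding the E2F activator that Rb restrains, had 11, 8 and 12 peaks. Its start peak (chr2:154569780-154570345) had 69 tags in WT and 79 in mutant, a ratio of 1.13 (0.808 to 1.59), with ranks of 91.9%, 93.5% and 95.6% in WT, het and mutant. A second WT peak beside it (chr2:154568821-154569557, 37 tags) had the highest ratio of the 59 pairs, 2.11 (1.41 to 3.21), because its partner by the rule was the mutant start peak of 79 tags, which reaches over its edge. The mutant peak that covers its summit had 34 tags, a ratio of 0.907, so this call does not describe a difference at that summit. The strongest peak away from a start, 14166 bp upstream, had 59 and 51 tags (0.854, 0.575 to 1.26). The strongest WT peak without a mutant partner in any of the 10 regions lay here, at the start of Actl10 (30 tags, rank 51.3%), and had no het partner.

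Trp53, the gene of p53, had 7, 7 and 9 peaks, and every WT and every mutant peak had a partner in the other of these lists. The start peak (chr11:69580215-69580468) had 34 tags in both, a ratio of 0.988 (0.596 to 1.64). It ranked at 71.9% in WT and 72.4% in mutant but 55.4% in het, where 12.6% of start peaks differed as much downwards. An intronic peak 1083 bp inside (chr11:69581165-69581633) was higher than the start peak, with 44 tags in WT and 35 in mutant (0.786, 0.489 to 1.25). The start of Wrap53, which runs the other way from beside Trp53, had 55 and 56 tags.

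Mdm2, the gene of the ubiquitin ligase that limits p53, had 9, 8 and 7 peaks. Its start peak (chr10:117709939-117710994), the highest ranked start peak of the 10 genes in WT, had 78 tags in WT and 71 in mutant, a ratio of 0.899 (0.642 to 1.26), and ranks of 97.8%, 96.2% and 96.2% in WT, het and mutant. The remaining peaks were much lower and mostly at the neighbour Cpm. There an intronic peak (chr10:117672806-117673073) had 18 tags in WT and 29 in mutant, a ratio of 1.59 (0.854 to 3.04). It was called higher by pileup but not by fold enrichment. The strongest peak away from a start, also intronic in Cpm (chr10:117682626-117682787, WT rank 63.9%), had 18 and 13 tags, a ratio of 0.713 (0.321 to 1.54). Of the 6 shared peaks of the region 3 were higher and 3 lower in mutant. Of 9 WT peaks 3 lacked a mutant partner, the strongest with 17 tags in an intron of Cpm.

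**Figure D5:**
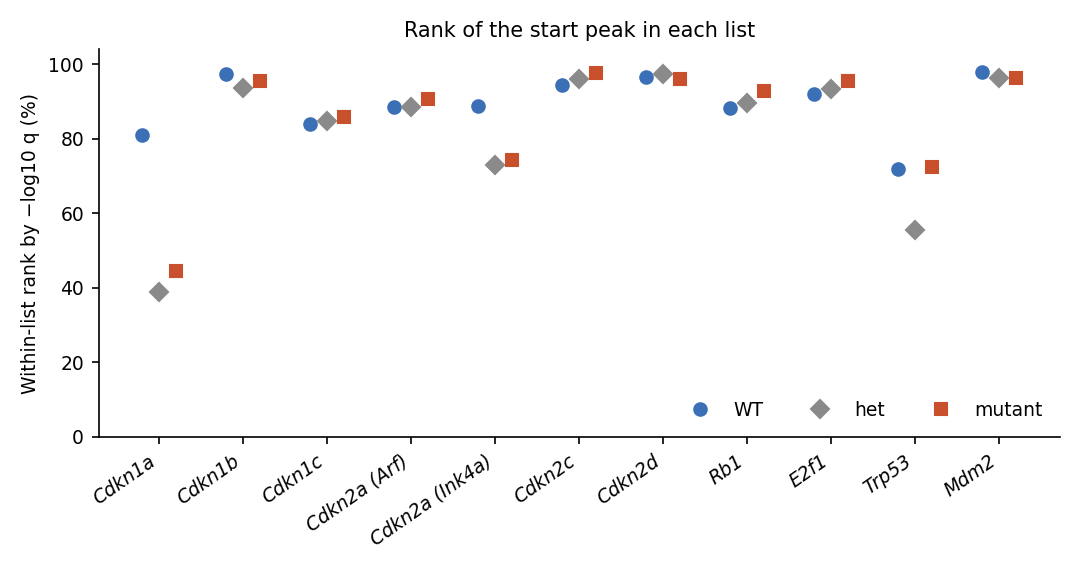
Within-list rank by −log10 q (y axis, percent) of the start peak of each gene, with Cdkn2a at both starts (x axis), in the WT, het and mutant lists. Ranks of the 3 lists lie within 5 points of each other except at Cdkn1a and Ink4a, lower in het and mutant than in WT, and at Trp53, lower in het alone.

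Other genes of the same pathways were compared at their starts, and none was past 1.5-fold. Of 28 p53 target genes, all had a start peak in all 3 lists, 13 were higher and 15 lower in mutant, 0 were past 1.5-fold, and the median log2 ratio was −0.011. Of 24 genes of cyclins, CDKs, E2F factors, Rb relatives and other regulators of the G1 phase, all had a start peak in all lists, 18 were higher and 6 lower, 0 were past 1.5-fold, and the median was 0.042. Over all shared start peaks the median was 0.064, and 5.06% were called higher and 1.06% lower. Of all these pairs 62.5% had a log2 ratio of −0.0006 or more, so higher pairs were the majority there too. The counts by direction in both groups are to be read beside that share. The start ratio of Cdkn1a lay below those of all 52 genes. As it was already the lowest of the 59 pairs, this was likely from the outset and is no separate support. The 52 genes had start peaks that were often stronger. Their median WT rank was 95.1% for the p53 targets and 93.4% for the second group, against 81.0% for the Cdkn1a start.

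Sequence letters at the peaks were searched on both strands in 300 bp centred on the WT summits. The p53 response element was taken as 2 half-sites of 10 bases with 0 to 13 bases between them and no mismatch allowed. In this strict form it was in 0 of the 70 windows and in 0.0686% of all 152982. It occurred once in the whole of the 10 regions, at chr17:29090906-29090937, 70 bp before the upstream Cdkn1a start, as marked in capitals above, and lay in a peak of no list. In RefSeq promoters, from 250 bases before to 50 after a start, 0.0731% of 32817 held it. Single half-sites were in 9 of the 70 windows (12.9%), against 9.92% of all windows. Of these, 5 were at starts, those of Mdm2, Trp53, Cdkn2d, Kri1 and Lpar6 (14.7% of 34 start windows, against 7.41% of all). Elements with a mismatch were not searched for, so these counts do not show that the other genes lack p53 sites. E2F letters (TTTGGCGC, TTTCCCGC, TTTCGCGC or TTTGCCGC) were in 3 of the 34 windows at starts (8.82%, against 3.04% of all start windows), those of Rb1, E2f1 and the Arf start of Cdkn2a, while the windows of Cdkn1a and Ink4a held none. Gli letters (GACCACCCA), of the effectors of Sonic hedgehog, were in 0 of 70 windows and 0.388% of all, and the E-box CAGCTG in 19 of 70 (27.1%) and 28.6% of all.

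The label of the cells was checked by start peaks of marker genes. All 5 GNP markers (Atoh1, Barhl1, Pax6, Zic1 and Neurod1) had a start peak in every list, at WT ranks of 75.3% to 91.9%. These ranks did not set the GNP markers apart, since the Purkinje cell markers with a start peak ranked at 82.8% to 89.1% and those of oligodendrocytes at 74.5% to 80.9%. Start peaks were also present for 2 of 3 Purkinje cell, 3 of 3 Pax2 interneuron, 4 of 4 astroglial, 3 of 4 oligodendrocyte and 3 of 3 endothelial markers in WT, with the same numbers in mutant, and for 1 of 3 microglial markers in WT (rank 43.2%) and 0 in mutant and het. The WT start peaks of Cldn5 (20 tags) and Csf1r (16 tags) overlapped no mutant or het peak, and that of Pax2 (16 tags) no het peak. At Cldn5 the mutant and het lists did have a start peak, but not an overlapping one. Over the whole WT list 9.46% of start peaks had no mutant peak. Past 1.5-fold, both higher in mutant, were Gdf10 of the astroglial markers (17 and 26 tags) and Pecam1 of the endothelial ones (10 and 17 tags). Both intervals of the ratio, 0.789 to 2.97 and 0.726 to 4.10, include 1. Of all start pairs 5.06% were called higher. The part of such cells in the results above was not tested. In bulk chromatin, fewer cells with an open site and a site less open in each cell cannot be told apart.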

How the data were processed

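The 3 deposited peak lists hold narrow peaks that the authors called with MACS2 (2.1.0.20150731 in the submitters' processing notes) on libraries pooled by genotype, with no control sample and a cutoff of 0.05 on the q-value. Per the file headers, WT and mutant peaks came from a STAR folder without read shifting (fragment lengths 90 and 88 bp, tag sizes 107 and 76 bp), and het peaks from a bowtie folder, with tags shifted by -100 bp and extended to 200 bp. Bowtie and the shift are what the methods give for all groups. Het heights were therefore not compared. From the deposited files 3 values per peak were used: the pileup signal, a whole number of tags without depth scaling, the fold enrichment, a ratio to local background with a pseudocount of 1 on each side, and the −log10 q-value.

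The members and gene lists were chosen with earlier results of these data known. Coordinates are mm10, counted from 1, and 0 peaks ran past the end of the 21 chromosomes of the GRCm38.p6 sequence used for motifs. Genes were protein-coding and long non-coding genes of GENCODE M21 (32106). Peaks were shared at an overlap of 1 bp or more, and the partner of a WT peak was the overlapping mutant peak of highest −log10 q. Location was read at the summit, with a start within 1 kb first, then exon, intron and intergenic. The signal per 1000000 tags, ratios and ranks were computed with Python 3.11.15, pandas 2.3.3 and scipy 1.17.1, with Wilson intervals for shares, exact binomial intervals for ratios of tag counts and exact Poisson intervals for single counts, all at 95%. Overlap, interval and motif code was checked on simulated data. Genes named were all 10. For each, the start peak was looked up (strongest in WT within 1 kb of an own start). So were the strongest peak away from starts, the strongest unpartnered peak of each list, and the largest called ratio in each direction. Not every peak so picked is given above. Neighbours beyond this were added after their values were seen. Of the other pathway genes and the markers, only those past 1.5-fold or without a partner at their start peak were to be named. Alternatives were another overlap, a stricter q, other gene regions, median centring, fold enrichment and pairs of exactly 1 peak each. All columns were mapped to a group, with 0 left over.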

Additional observations from a re-analysis of the deposited data

How the results depend on the processing

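No paired analysis was possible because each list pools the libraries of a genotype, and for the same reason no replicate could be left out. The share of WT peaks that lacked a mutant partner (15.7%) was 28.6% at 50% reciprocal overlap and 5.88% for WT peaks of −log10 q of at least 5. The share of mutant peaks without a WT peak (16.9%) was 35.1% and 7.14% under the same settings, 7.14% for the gene body alone and 5.56% for the gene body plus 5 kb upstream and 1 kb downstream. The share of WT peaks with a het peak (75.7%) was 64.3% at 50% reciprocal overlap, 86.3% with both lists and 90.2% with WT alone at −log10 q of at least 5, 88.9% for the gene body and 88.2% for the 5 kb and 1 kb region. Over the whole lists these shares were 35.9%, 43.8% and 50.1% at 50% reciprocal overlap, and 5.78%, 11.2% and 84.2% with the stricter q on the list that was counted. The median log2 ratio stayed within its interval under all 7 alternatives, from −0.067 to 0.032. Calls at 1.5-fold were 5 higher and 3 lower, 2 and 3 after centring on the median of all shared peaks (0.075), 2 and 2 by fold enrichment, and 4 and 3 for pairs of exactly 1 peak each, and over all shared peaks they were 6.32% and 5.1%, 6.51% and 1.94%, and 7.58% and 3.73%. The Cdkn1a start was called lower under all 4 settings, the Ink4a start under all but fold enrichment, Cpm likewise, and Kri1, Lockd and the higher Rcbtb2 peak under neither centring nor fold enrichment. The lower Rcbtb2 peak was called under all 4 settings, and E2f1 under all but pairs of exactly 1 peak each. At 17 tags the mutant Cdkn1a peak has a wide counting interval, a peak missing from a list may lie below its threshold, and tag size differed between the lists.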

Other observations

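Of the 58 het peaks, 7 had no WT peak and 3 had neither a WT nor a mutant peak, which is 5.17% against 7.41% of all het peaks. These 3 were ranked low in the het list and lay at the starts of Necab3 (24 tags, rank 2.85%) and Atp1b2 (18 tags, rank 25.2%) and 15581 bp upstream of E2f1 (28 tags, rank 31.8%). Among the 11 unpartnered WT peaks 4 were met by the het list (36.4%, Wilson 95% interval 15.2 to 64.6, against 13.2% over the whole WT list), as were 4 of the 13 unpartnered mutant peaks (30.8%, 12.7 to 57.6, against 15.2%). After peaks of the lists within 300 bp of each other were joined, the 10 genes had 73 regions, of which 46 were in all 3 lists, 6 in WT alone, 7 in mutant alone and 2 in het alone. The 300 bp windows on WT summits at the 10 genes held a median of 9 CpG dinucleotides, against 4 over all WT peaks. The share of WT peaks at starts also differs, 48.6% against 16.1%, and the windows were not matched for it.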
